A study of Mus musculus with 6 samples.

Results

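The 10 genes described here encode transcription factors and regulators that build or maintain group 2 innate lymphoid cells (ILC2s). They are Gata3, Rora, Bcl11b, Id2, Gfi1, Ets1, Tcf7, Zbtb16, Nfil3 and Tox, taken by name, and all 10 were found among the 17546 genes of the deposited table. Bulk RNA-seq libraries came from ILC2s of lungs of BALB/c mice that had been given 3 intranasal doses of 1 µg IL-33, the alarmin that activates ILC2s. The cells were then cultured with IL-2 and IL-7, each at 10 ng/mL, so both groups share the IL-33 priming and the cytokines. One group of 3 libraries (Yoda1 4, 5 and 6) received 10 µM Yoda1 for 24 h, and the other (DMSO 1, 2 and 3) received DMSO. Yoda1 is a chemical agonist of Piezo1, a calcium-permeable cation channel that opens when cells are stretched or pressed. The comparison asks how ILC2 transcripts change when Yoda1 is present. Library totals ran from 14214048 to 31627519 counts. DMSO 2 and DMSO 3 share a number in their labels (19), as do Yoda1 4 and Yoda1 5 (21). The labels do not say what the number means, so each group may hold fewer than 3 independent samples, and every p-value reflects only how much these libraries vary, perhaps for technical reasons.

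ILC2s are lymphocytes without antigen receptors that make type 2 cytokines. Their precursors pass through stages that depend on NFIL3, TOX, TCF-1 (encoded by Tcf7), ID2 and PLZF (encoded by Zbtb16). GATA3, RORα, BCL11B, GFI1 and ETS1 act at or after commitment to the ILC2 fate. ID2 works in another way from the rest: it has no DNA-binding region and holds E proteins off DNA.

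Upstream sequences are shown for 3 members. Id2 and Rora are the members with the smallest p-values and lie on opposite sides of DMSO, and Gata3 is the factor most used to define ILC2s. Each is the 250 bases before the gene's start in RefSeq (build GRCm38.p6), read along the gene's strand. Capitals mark matches, on either strand, to 6 short motifs: CANNTG (the E-box bound by E proteins), GATAA (GATA factors), CCGGAA (ETS factors), CTTTGA (TCF and LEF factors), AGGTCA (the core of the site of ROR factors) and TTANNTAA (a D-box bound by NFIL3).
Id2, chr12:25096093-25096342, minus strand: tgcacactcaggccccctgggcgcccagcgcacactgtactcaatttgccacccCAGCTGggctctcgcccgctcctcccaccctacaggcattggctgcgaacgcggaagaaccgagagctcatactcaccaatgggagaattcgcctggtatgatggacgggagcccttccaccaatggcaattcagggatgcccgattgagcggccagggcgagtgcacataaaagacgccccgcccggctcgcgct
Rora, chr9:68653536-68653785, plus strand: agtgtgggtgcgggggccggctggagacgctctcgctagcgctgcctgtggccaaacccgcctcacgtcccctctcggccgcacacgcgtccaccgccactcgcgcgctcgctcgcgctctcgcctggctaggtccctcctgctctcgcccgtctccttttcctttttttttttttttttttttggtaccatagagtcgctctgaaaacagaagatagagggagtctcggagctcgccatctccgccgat
Gata3, chr2:9878601-9878850, minus strand: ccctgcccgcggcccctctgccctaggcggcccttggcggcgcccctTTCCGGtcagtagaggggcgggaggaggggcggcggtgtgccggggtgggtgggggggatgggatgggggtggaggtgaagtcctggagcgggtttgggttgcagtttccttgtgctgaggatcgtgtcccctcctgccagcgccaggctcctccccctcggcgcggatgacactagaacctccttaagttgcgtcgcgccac
The Id2 window held 1 E-box, ending 191 bases before the start, and the Gata3 window held 1 ETS motif, ending 198 bases before it. The Rora window held none of the 6 motifs. An E-box was present in 66.2% of all 32851 upstream windows of this length and the ETS motif in 12% of them. Upstream windows were matched for 7 of the 10 members, and 4 of these 7 had an E-box. These matches describe letters only, and the RefSeq starts of Id2 and Gata3 lie inside the longer gene spans of the GENCODE annotation given with each gene.

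None of the 10 lineage factors passed the test between Yoda1 and DMSO over all genes. Rora, at 418 ± 50 CPM with Yoda1 and 309 ± 23 CPM with DMSO, and Tox, at 58.9 ± 12.5 CPM with Yoda1 and 38.8 ± 10.9 CPM with DMSO, were the members whose Yoda1 libraries all lay above the DMSO libraries. Id2, at 822 ± 102 CPM with Yoda1 and 1026 ± 23 CPM with DMSO, was the member whose Yoda1 libraries all lay below. Gata3 was at 925 ± 129 CPM with Yoda1 and 963 ± 36 CPM with DMSO (CPM is a count scaled to library depth with TMM factors, given as mean ± SD over 3 libraries per group). Genes were tested by quasi-likelihood in edgeR, with p adjusted by the Benjamini-Hochberg method over 13325 genes and a threshold of 0.05. It called 0 of 10 members, against 1.49% of all genes tested (0.570% higher with Yoda1 and 0.923% lower). Before adjustment, 3 members had a p under 0.05 (Rora and Tox higher, Id2 lower), against 14.5% of all genes. Groups did not overlap for the same 3 members, against 22.6% of all genes. DESeq2 called Rora alone, against 6.56% of the genes for which it gave an adjusted p, and limma voom called none, against 2.25%. The median size of a log2 change was 0.302 over the 10 members, 0.287 over all genes tested and 0.209 over the 6905 genes that averaged at least 20 CPM.

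**Figure D1:**
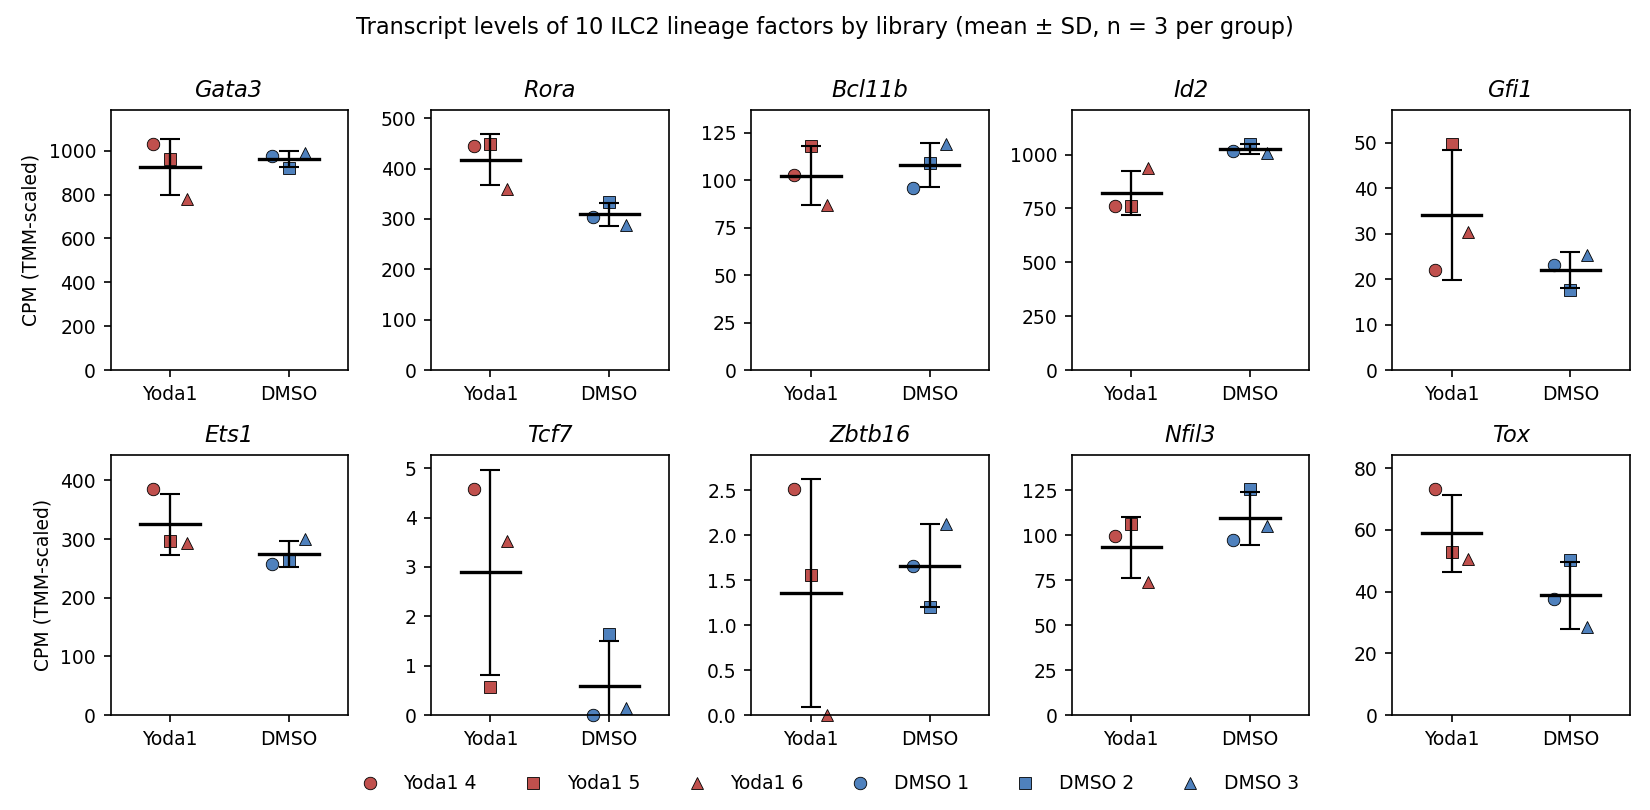
Level of each lineage factor in CPM (depth-scaled counts with TMM factors, axes from 0) in the Yoda1 libraries (red) and the DMSO libraries (blue), with a marker shape for each library. Black lines are the mean and SD over 3 libraries. Rora and Tox lie higher and Id2 lower in all Yoda1 libraries, while the other 7 members overlap between the groups.

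Among the factors that maintain committed ILC2s, Gata3 encodes the zinc finger factor needed for ILC2 development and type 2 cytokine expression. Its level was 1032, 962 and 781 CPM in Yoda1 4, 5 and 6, against 975, 922 and 991 CPM in DMSO 1, 2 and 3. Yoda1 6 was the lowest of the 6 libraries and Yoda1 4 the highest, so the groups overlapped. On the log2 scale the change was -0.06 (SE 0.11), with a 95% interval of -0.30 to 0.18 that runs from 0.812-fold to 1.14-fold (edgeR adjusted p = 0.859). The sign of this small value turned without Yoda1 6, at 0.050 (SE 0.063). Gata3 lies on chromosome 2 at 9857078 to 9890034 (GRCm38, the build also called mm10).

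Rora encodes RORα, a nuclear receptor without which mice lack mature ILC2s. It was at 444, 449 and 360 CPM in Yoda1 4, 5 and 6, against 304, 334 and 289 CPM in DMSO 1, 2 and 3. All Yoda1 libraries were above all DMSO libraries, and Yoda1 6 was again the lowest of its group. The log2 change was 0.44 (SE 0.11), or 1.35-fold with a 95% interval of 1.13 to 1.62. It had the smallest p among the members but did not pass (edgeR adjusted p = 0.112). DESeq2 called it (adjusted p = 0.00856), and edgeR called it without Yoda1 6 (log2 change 0.53, adjusted p = 0.0365). Without any other single library its adjusted p was between 0.198 and 0.370. With libraries that share a label number summed, the log2 change of Rora was 0.36 and did not pass (edgeR adjusted p = 0.456). Without DMSO 2 and DMSO 3 together it was 0.45 (SE 0.21). That fit was chosen after seeing the data and leaves 1 DMSO library, so it adds little evidence. Rora lies on chromosome 9 at 68653786 to 69388246.

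Bcl11b encodes a zinc finger factor that holds ILC2s away from the ILC3 programme. Its level was 103, 118 and 86.8 CPM in Yoda1 4, 5 and 6, against 95.6, 109 and 119 CPM in DMSO 1, 2 and 3. The groups overlapped throughout. Its log2 change was -0.08 (SE 0.15, edgeR adjusted p = 0.87), and its sign turned without Yoda1 6. The 95% interval of the fold was 0.747 to 1.21. Bcl11b lies on chromosome 12 at 107910403 to 108003602.

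Gfi1 encodes a zinc finger repressor that sustains Gata3 and the IL-33 receptor in ILC2s. It was at 21.9, 49.8 and 30.3 CPM in Yoda1 4, 5 and 6, against 23.0, 17.7 and 25.4 CPM in DMSO 1, 2 and 3. Yoda1 5 stood above every other library and Yoda1 4 lay within the DMSO values. The log2 change was 0.63 (SE 0.31, edgeR adjusted p = 0.40), and without Yoda1 5 it was 0.25. Gfi1 had the largest spread with Yoda1 among the 8 members above 20 CPM, with an SD of 42.1% of the mean, against 17.9% with DMSO. It lies on chromosome 5 at 107716657 to 107726036.

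Ets1 encodes the founding member of the ETS family, which supports ILC2 development and expansion. Its level was 386, 297 and 294 CPM in Yoda1 4, 5 and 6, against 258, 265 and 300 CPM in DMSO 1, 2 and 3. Yoda1 4 was the highest library, and the other Yoda1 libraries were level with DMSO 3. Its log2 change was 0.25 (SE 0.13, edgeR adjusted p = 0.434), and without Yoda1 4 it was 0.11. Ets1 lies on chromosome 9 at 32636221 to 32757820.

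Among the factors of early precursors, Id2 is needed by all innate lymphoid lineages. It was at 762, 763 and 940 CPM in Yoda1 4, 5 and 6, against 1017, 1051 and 1009 CPM in DMSO 1, 2 and 3. All Yoda1 libraries were below all DMSO libraries, and Yoda1 6 was the nearest to them. The log2 change was -0.32 (SE 0.096), or 0.801-fold with a 95% interval of 0.688 to 0.933 (edgeR adjusted p = 0.164). It passed without Yoda1 6, where the log2 change was -0.43 (edgeR adjusted p = 0.018). Without any other single library the adjusted p lay between 0.256 and 0.414. Yoda1 4 and Yoda1 5, which give the near-identical pair of values, are the libraries that share a label number. Id2 lies on chromosome 12 at 25093799 to 25097140.

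Tox encodes an HMG-box factor of early lymphoid precursors that also marks chronically stimulated T cells. It was at 73.3, 52.9 and 50.7 CPM in Yoda1 4, 5 and 6, against 37.5, 50.4 and 28.7 CPM in DMSO 1, 2 and 3. The groups did not overlap, though Yoda1 6 and DMSO 2 lay side by side. A log2 change of 0.60 was found (SE 0.24), or 1.51-fold with a 95% interval of 1.03 to 2.22, and it did not pass (edgeR adjusted p = 0.306). The sign held in each fit without 1 library, where the log2 change ran from 0.41 to 0.83. Tox lies on chromosome 4 at 6686353 to 6991557.

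Nfil3 encodes a basic leucine zipper repressor required for the common precursors of innate lymphoid cells and linked to the circadian clock. It was at 99.2, 106 and 73.8 CPM in Yoda1 4, 5 and 6, against 97.5, 126 and 105 CPM in DMSO 1, 2 and 3. Yoda1 6 was the lowest library and DMSO 2 the highest, with the rest mixed. Its log2 change was -0.23 (SE 0.17, edgeR adjusted p = 0.588), and without Yoda1 6 it was -0.09. Nfil3 lies on chromosome 13 at 52967209 to 52981073.

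Tcf7 and Zbtb16 were close to the detection limit. Tcf7, which encodes TCF-1, a factor of early precursors, had 71, 10 and 59 counts in Yoda1 4, 5 and 6, against 0, 52 and 2 counts in DMSO 1, 2 and 3. The values scatter within both groups, and DMSO 2 and DMSO 3, which share a label number, were 52 and 2. The 0 in DMSO 1 is compatible with a level of at most 0.167 CPM, for counting error only. The fitted log2 change of 2.21 had a 95% interval of -0.85 to 5.26, so neither direction nor size was resolved (edgeR adjusted p = 0.504). Without 1 library it ran from 1.65 (without DMSO 1) to 5.31 (without DMSO 2, adjusted p = 0.271). Zbtb16, which encodes PLZF, a factor that ILC precursors express transiently, had 39, 27 and 0 counts with Yoda1 and 30, 38 and 30 counts with DMSO, in the same library order. Its 0 is in Yoda1 6, where the same limit is 0.175 CPM. Its log2 change was -0.28 with an interval of -2.92 to 2.35 (edgeR adjusted p = 0.946). Tcf7 lies on chromosome 11 at 52252371 to 52283014 and Zbtb16 on chromosome 9 at 48654297 to 48836222.

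**Figure D2:**
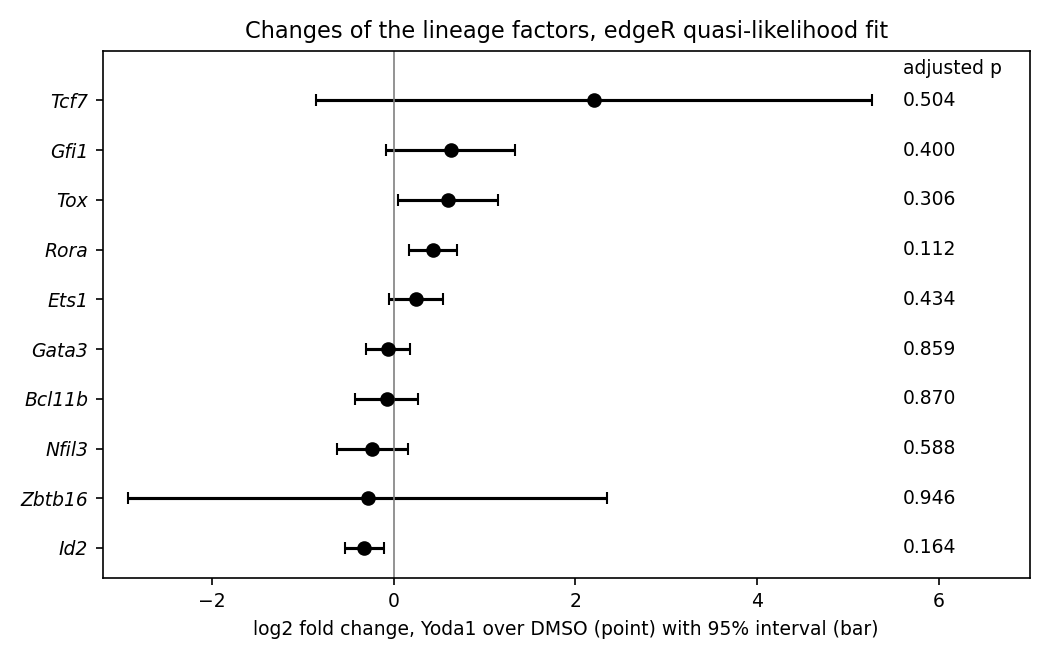
Log2 fold change of Yoda1 over DMSO for the 10 lineage factors (points) with 95% intervals (bars) and Benjamini-Hochberg adjusted p from the edgeR quasi-likelihood fit. The intervals of Rora and Tox lie above 0 and that of Id2 below 0, but no adjusted p is under 0.05; the smallest is 0.112.

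Levels of different genes were compared per length, as CPM per kb of merged exons. Id2 was the highest member in both groups, at 337 ± 42 with Yoda1 and 421 ± 9 with DMSO. Gata3 followed at 233 ± 33 with Yoda1 and 242 ± 9 with DMSO, and lay above 98.3% of the genes measured with Yoda1 and 98.4% with DMSO. Nfil3 came next at 45.97 ± 8.44 with Yoda1 and 54.0 ± 7.2 with DMSO, then Ets1 at 38.4 ± 6.2 with Yoda1 and 32.4 ± 2.7 with DMSO. The next members lay lower in both groups. Rora was at 32.0 ± 3.8 with Yoda1 and 23.6 ± 1.8 with DMSO, and Bcl11b at 12.6 ± 1.9 with Yoda1 and 13.3 ± 1.5 with DMSO. Gfi1 was at 10.7 ± 4.5 CPM per kb with Yoda1 and 6.91 ± 1.24 with DMSO, and Tox at 7.75 ± 1.64 with Yoda1 and 5.10 ± 1.44 with DMSO. Zbtb16 and Tcf7 were the lowest, below 2 CPM per kb in every library. The order of the first 8 members was the same in both groups. With Yoda1, neighbours whose library ranges overlapped were Nfil3 and Ets1, Bcl11b and Gfi1, Gfi1 and Tox, and Tcf7 and Zbtb16. With DMSO they were Gfi1 and Tox, and Zbtb16 and Tcf7.

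**Figure D3:**
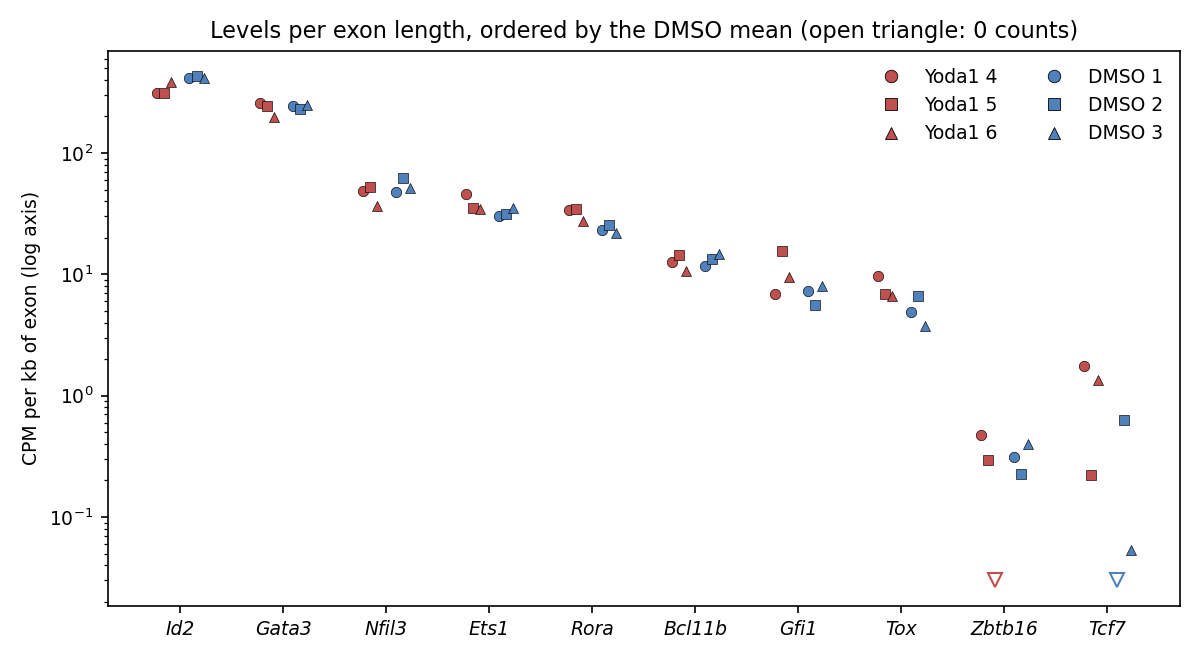
Level per exon length (CPM per kb, log axis) of the 10 members in each Yoda1 library (red) and DMSO library (blue), ordered by the DMSO mean. Open triangles mark 0 counts (Zbtb16 in Yoda1 6, Tcf7 in DMSO 1). Id2 and Gata3 stand above the other 8 members, and Tcf7 and Zbtb16 far below them.

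Libraries of a group differed in how the members lay. Of the 3 Yoda1 libraries, Yoda1 6 held the lowest value for 7 of the 10 members (Gata3, Rora, Bcl11b, Ets1, Zbtb16, Nfil3 and Tox), whereas over all genes tested it held the lowest value for 36.8%. It held the highest value for Id2. With DMSO the lowest values were spread over the libraries, with 4, 3 and 3 members in DMSO 1, 2 and 3.

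Related genes of the same families were mostly not called either. Of 21 tested relatives (GATA, ROR, ID, ETS, TCF, ZBTB and TOX families and the PAR basic leucine zipper factors), edgeR called 1 lower and none higher and left 20 uncalled. Over all genes tested, 0.923% were called lower and 0.570% higher. Before adjustment, 3 relatives had a p under 0.05, all lower, against 14.5% of all genes in either direction. The relative that fell was Id3, which, like Id2, holds E proteins off DNA. It was at 10.8, 8.94 and 6.39 CPM in Yoda1 4, 5 and 6, against 38.5, 30.1 and 21.5 CPM in DMSO 1, 2 and 3, without overlap. Its log2 change was -1.79 (SE 0.30, edgeR adjusted p = 0.0309). The call was lost without Yoda1 5, Yoda1 6, DMSO 1, DMSO 2 or DMSO 3 (adjusted p = 0.131, 0.0587, 0.123, 0.14 and 0.073). The calls of Id3 and of the other related genes named as changed were all lost in edgeR with the label suffix as a term (adjusted p from 0.124 to 0.397). They were also lost with libraries that share a label number summed (0.0792 to 0.301). The suffix is 0 in DMSO 1 and DMSO 2 only, so with this term DMSO 3 alone is set against the Yoda1 libraries. There the log2 change of Id3 was -1.31 (SE 0.37). The median log2 change of the relatives was -0.06, beside 0.01 over all genes tested.

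Further relatives and partners, chosen after their values were seen, are given for comparison. Tox2, the closest relative of Tox, was at 132, 164 and 116 CPM in Yoda1 4, 5 and 6, against 178, 234 and 226 CPM in DMSO 1, 2 and 3. It lay below DMSO in all Yoda1 libraries, whereas Tox lay above, and Tox2 did not pass in edgeR (log2 change -0.63, SE 0.16, adjusted p = 0.102). Under 16 other settings of the processing, Tox2 passed in 2 and not in the other 14. The Tox to Tox2 ratio of CPM within a library was 0.437 ± 0.116 with Yoda1 and 0.184 ± 0.050 with DMSO. Its exact permutation p was 0.1 (adjusted p = 0.133). The opposite order of the genes, each without overlap between the groups, fixes that p in advance, so the test adds no evidence. Lef1, the TCF-1 relative, was at 22.2 ± 5.3 CPM with Yoda1 and 34.7 ± 8.6 CPM with DMSO and did not pass. The E protein genes that ID2 acts on did not pass in edgeR. Tcf3 was at 104 ± 22 CPM with Yoda1 and 111 ± 12 CPM with DMSO, Tcf12 at 38.6 ± 14.0 CPM with Yoda1 and 28.8 ± 1.6 CPM with DMSO, and Tcf4 at 5.21 ± 4.71 CPM with Yoda1 and 5.42 ± 2.26 CPM with DMSO. The ratio of Id2 to their summed CPM was 5.85 ± 1.98 with Yoda1 and 7.09 ± 0.64 with DMSO, and the groups overlapped (exact two-sided permutation p = 0.4, adjusted p = 0.4 over the 4 ratios computed). The ratio of Id2 to Id3 was 101 ± 41 with Yoda1 and 36.1 ± 10.3 with DMSO (exact permutation p = 0.1, the smallest that 3 against 3 libraries allow, adjusted p = 0.133). Such a p cannot fall under 0.05 for any of the ratios. Id3 had already been called lower in these same libraries, so the Id2 to Id3 ratio adds no separate evidence. The last of the 4 ratios, Rora to Id2, was 0.518 ± 0.117 with Yoda1 and 0.301 ± 0.016 with DMSO. Its exact permutation p was also 0.1 (adjusted p = 0.133), likewise fixed by the opposite order of its genes.

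Of 27 tested partners and cofactors (E proteins, LIM-domain and FOG partners, β-catenin and Groucho proteins, RUNX factors, corepressors and the Notch pathway), none passed in edgeR. Before adjustment, 2 higher and 2 lower genes had a p under 0.05, against 14.5% of all genes in either direction. The median log2 change was -0.02. Those with the smallest p were Lmo4, a LIM-domain partner of GATA and helix-loop-helix complexes, at 38.1 ± 1.4 CPM with Yoda1 and 21.5 ± 1.6 CPM with DMSO, and Ctnnb1, which encodes the TCF partner β-catenin, at 238 ± 27 CPM with Yoda1 and 168 ± 11 CPM with DMSO. Their edgeR adjusted p was 0.0674 and 0.0771, and DESeq2 called both.

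Of 23 other transcription factors that ILC2s use, 3 fell, none rose and 20 did not pass (over all genes tested, 0.923% fell and 0.570% rose). Before adjustment, 3 higher and 8 lower of them had a p under 0.05, against 14.5% of all genes in either direction. Their median log2 change was -0.28, beside 0.01 over all genes and 0.09 over the 10 lineage factors. Myb, a factor of progenitor and cycling cells, fell to 5.81 ± 1.12 CPM with Yoda1, against 23.2 ± 4.3 CPM with DMSO, a log2 change of -2.001 (SE 0.28, edgeR adjusted p = 0.0128). Irf4, a factor induced by receptor signals that promotes cytokine expression, fell to 14.4 ± 6.8 CPM with Yoda1, against 52.1 ± 6.8 CPM with DMSO (log2 change -1.85, SE 0.36, edgeR adjusted p = 0.0493). Nfkb1, which encodes the NF-κB p50 precursor, fell to 206 ± 4 CPM with Yoda1, against 343 ± 9 CPM with DMSO (log2 change -0.74, SE 0.09, edgeR adjusted p = 0.00734). Each of these calls was lost without Yoda1 5, DMSO 1, DMSO 2 or DMSO 3, and that of Irf4 also without Yoda1 4. In those fits the adjusted p was 0.0596 to 0.0963 for Myb, 0.0784 to 0.193 for Irf4 and 0.0521 to 0.0784 for Nfkb1. Stat6, which relays IL-4 and IL-13 signals and was chosen after its values were seen, was at 317 ± 44 CPM with Yoda1 and 211 ± 28 CPM with DMSO (edgeR adjusted p = 0.0821). It passed in 2 of 16 other settings of the processing and not in the other 14.

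**Figure D4:**
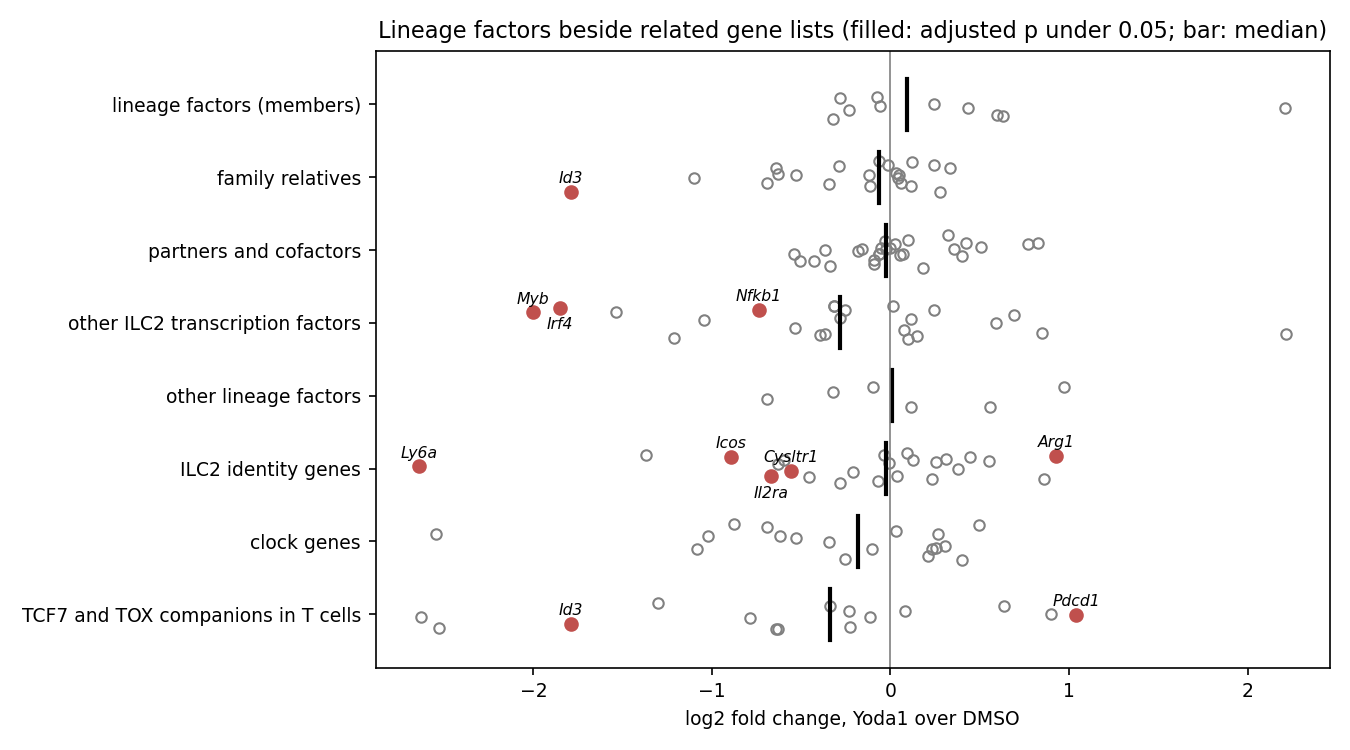
Log2 fold change of Yoda1 over DMSO for the 10 lineage factors (top) and for genes of 7 related lists. Filled points passed edgeR's adjusted p of 0.05 and are named, open points did not, and the black bar is the list median. No lineage factor is filled, and the calls elsewhere are Id3, Myb, Irf4, Nfkb1, Ly6a, Icos, Il2ra, Cysltr1, Arg1 and Pdcd1.

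Genes that identify ILC2s and whose expression several of these factors maintain went both ways. Of 24 tested, 1 rose, 4 fell and 19 did not pass, beside 0.570% of all genes tested that rose and 0.923% that fell. Before adjustment, 5 higher and 7 lower of them had a p under 0.05, against 14.5% of all genes in either direction. The median log2 change was -0.03. Arg1, arginase 1, rose to 462 ± 15 CPM with Yoda1, against 243 ± 33 CPM with DMSO (log2 change 0.93, SE 0.11). The genes that fell were Ly6a, which encodes Sca-1 (-2.64, SE 0.25), Icos, a costimulatory receptor (-0.89, SE 0.084), Il2ra, the IL-2 receptor alpha chain (-0.67, SE 0.076), and Cysltr1, a leukotriene receptor (-0.56, SE 0.10), with edgeR adjusted p of 0.00423, 0.00423, 0.00707 and 0.0379, and 0.00868 for Arg1. The Arg1 call was lost without Yoda1 5, DMSO 2 or DMSO 3 (adjusted p = 0.0614, 0.0747 and 0.0606). That of Il2ra was lost without DMSO 1, DMSO 2 or DMSO 3 (0.0505, 0.0617 and 0.0711), and that of Icos without DMSO 3 (0.0522). The Cysltr1 call held only without Yoda1 6, and its adjusted p in the other such fits was 0.0795 to 0.193. A pair of receptors of ILC2-activating cytokines were added after their values were seen. Il1rl1, the IL-33 receptor and a GATA3 and GFI1 target, was at 614 ± 76 CPM with Yoda1 and 576 ± 19 CPM with DMSO (edgeR adjusted p = 0.742), and Il17rb, the IL-25 receptor, at 58.6 ± 9.4 CPM with Yoda1 and 32.4 ± 4.0 CPM with DMSO (adjusted p = 0.0703). Il17rb passed in 4 of 16 other settings, among them DESeq2 (adjusted p = 0.000892) and voom (adjusted p = 0.0468), and not in the other 12.

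Among factors that define other lineages, Tbx21, the ILC1 factor, and Eomes, the natural killer cell factor, were under 1 CPM in all 6 libraries and were not tested. Of 6 tested factors of other lineages none passed in edgeR, and 0 had a p under 0.05 before adjustment, against 14.5% of all genes. The regulatory T cell factor Foxp3 was at 4.66 ± 2.74 CPM with Yoda1 and 5.81 ± 1.63 CPM with DMSO, and Mitf, a mast cell factor, at 1.41 ± 1.43 CPM with Yoda1 and 0.707 ± 0.409 CPM with DMSO.

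Of 16 ILC2 markers 15 were measured and they summed to between 11382 and 12415 CPM of all counts with Yoda1 and between 10272 and 10852 CPM with DMSO. Il5 alone made up 6935 to 8258 CPM of this sum with Yoda1 and 5343 to 5936 CPM with DMSO, and the list includes Gata3 and Rora. Thy1, a general marker of lymphoid cells, was between 0.116 and 1.24 CPM with Yoda1 and between 1.48 and 2.89 CPM with DMSO. Several members are also expressed by T cells, so T cell markers bear on them. The 10 measured T cell markers of 14 summed to between 486 and 631 CPM with Yoda1 and between 480 and 532 CPM with DMSO, mostly through Trbc2 and Trbc1, and Trac was under 1 CPM in all libraries. Markers of natural killer cells and ILC1s, 6 of 11 measured, summed to between 47.7 and 64.2 CPM with Yoda1 and between 162 and 216 CPM with DMSO, mostly Gzmb and Gzma. EdgeR called both lower, Gzmb at a log2 change of -1.94 (adjusted p = 0.00452) and Gzma at -1.93 (adjusted p = 0.00887). Their values under other settings are not given. Eomes and Tbx21 of this list were under 1 CPM in all libraries, so the sum mainly describes these granzyme genes. Epithelial markers, 10 of 14 measured, summed to between 55.2 and 76.1 CPM with Yoda1 and between 91.6 and 429 CPM with DMSO. DMSO 2 and DMSO 3 held 302 and 293 CPM of the club cell gene Scgb1a1, which was at 0.0585 CPM in Yoda1 6 and at 0 in the other 3 libraries. Epcam, the other abundant epithelial marker, was between 48.8 and 70.1 CPM with Yoda1 and between 64.6 and 67.8 CPM with DMSO. Macrophage and monocyte markers, 8 of 12 measured, summed to between 20.2 and 27.6 CPM with Yoda1 and between 11.8 and 15.03 CPM with DMSO, and Csf1r, Itgam, Fcgr1 and C1qb were under 1 CPM throughout. The most abundant of them were Cd68, at 12.4, 13.9 and 8.24 CPM in Yoda1 4, 5 and 6, against 6.44, 10.2 and 7.39 CPM in DMSO 1, 2 and 3, and Lyz2, at 6.38, 9.93 and 10.99 CPM with Yoda1, against 4.94, 1.30 and 1.76 CPM with DMSO. Lyz2 did not overlap between the groups and neither passed in edgeR (adjusted p = 0.519 for Cd68 and 0.172 for Lyz2). Without DMSO 2 and DMSO 3 together, a fit chosen after seeing the data that leaves 1 DMSO library, the log2 change was -0.32 (SE 0.17) for Id2 and 0.65 (SE 0.33) for Tox. The part of these cells in the members' values was not tested, and in bulk libraries fewer cells of a type and less RNA per cell cannot be told apart.

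The genes whose pattern over the 6 libraries was most like that of Rora and Id2 were found among 6904 genes averaging at least 20 CPM, by the root mean square difference of centred log2 CPM. Nearest to Rora were Hagh, which encodes a glyoxalase (0.0151), Alas1, the first enzyme of heme synthesis (0.0391), and Ube2g1, a ubiquitin-conjugating enzyme (0.0502). Hagh was at 70.8, 72.2 and 57.8 CPM in Yoda1 4, 5 and 6, against 48.5, 52.3 and 46.7 CPM in DMSO 1, 2 and 3. Nearest to Id2 were the predicted gene Gm12346 (0.032), Slc25a4, a mitochondrial ADP/ATP carrier (0.0345), and Pgrmc2, a heme-binding membrane protein (0.0362). Slc25a4 was at 359, 373 and 443 CPM with Yoda1, against 461, 482 and 468 CPM with DMSO. None of these 6 genes passed in edgeR.

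**Figure D5:**
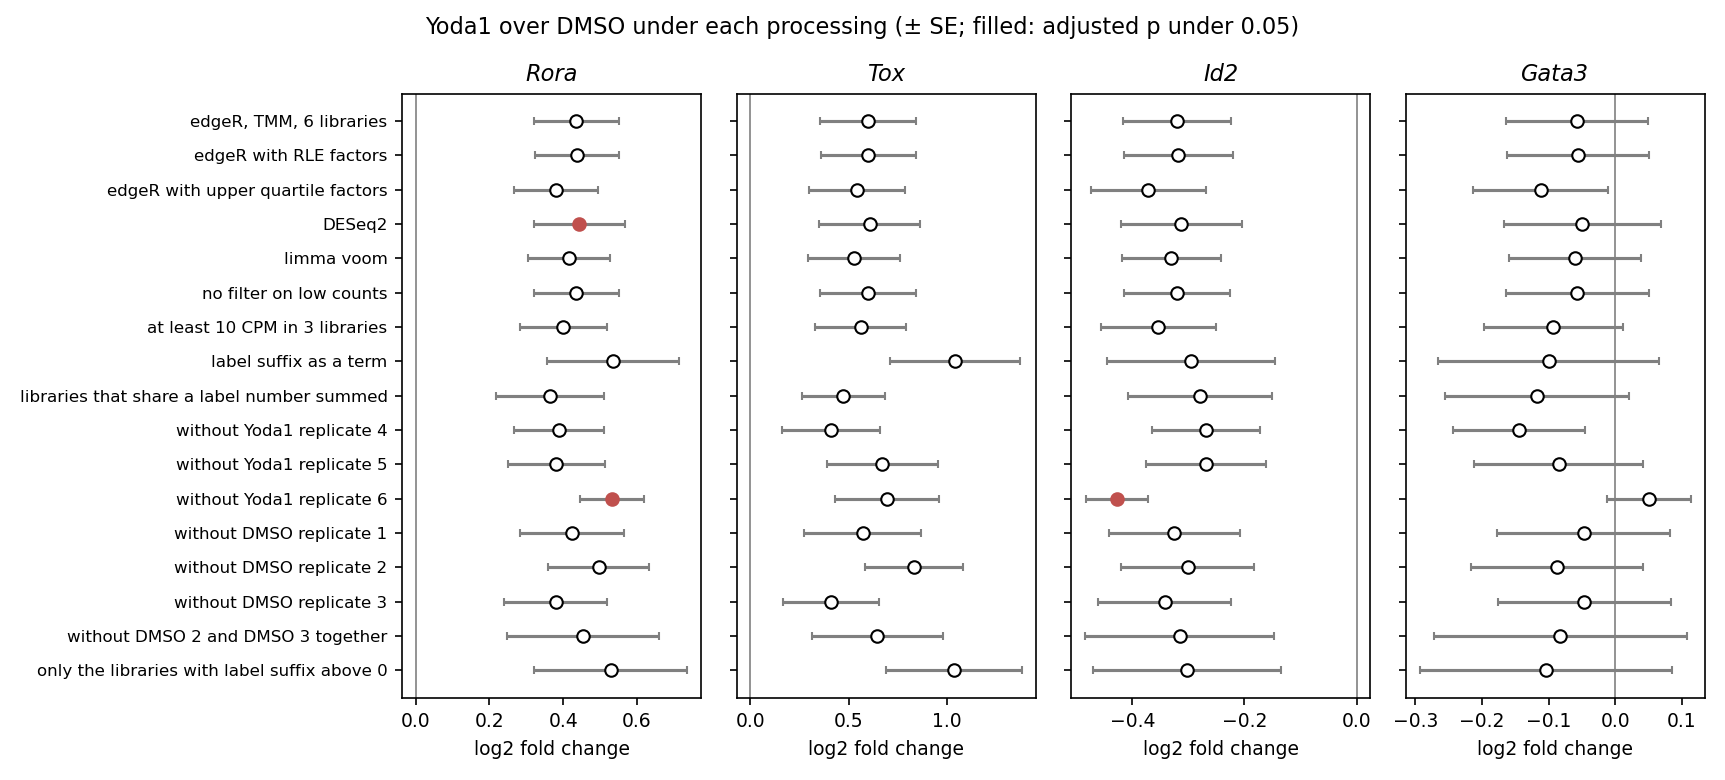
Log2 fold change of Yoda1 over DMSO (± SE) of Rora, Tox, Id2 and Gata3 under the reported fit (top) and 16 other settings. Filled points have an adjusted p under 0.05: Rora with DESeq2 and without Yoda1 6, and Id2 without Yoda1 6. Rora and Tox stay above 0 and Id2 below 0 in all settings shown, and Gata3 lies on both sides of 0.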

How the data were processed

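The samples were 6 RNA-seq libraries of mouse lung ILC2s, 3 with Yoda1 and 3 with DMSO, grouped by the sample labels; the deposited table and the design text name the control PBS. The values are expected counts per gene, estimated by the authors and not scaled to depth, in 1 deposited table with libraries as rows. The submitters' processing notes name the build mm10 and the deposited table's name names Partek. The aligner, counting method, strand setting and annotation were not given in those sources. Between 57.1% and 66.5% of a library's values were whole within 0.001, and counts were rounded before tests. Without a known strand setting, reads of overlapping genes cannot be told apart from those of Gata3, Rora and Gfi1; each such gene held at most 210 counts over all libraries.

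Genes were kept by filterByExpr (minimum count 10, minimum total 15), scaled with TMM factors and tested with glmQLFTest after glmQLFit on group alone (edgeR 4.0.16, R 4.3.3). Adjustment was by Benjamini-Hochberg over 13325 genes, and the procedure was tested on simulated data. The simulated libraries were drawn independently, so that test cannot address libraries that share a label number and may not be independent. All 10 members passed the filter. The standard error is the log2 change divided by the root of F. DESeq2 1.42.0 and limma 3.58.1 (voom) were alternatives. Positions and exon lengths came from GENCODE M21 on GRCm38. For every pair of libraries in a group, chi-square per degree of freedom reached 18.11 or more, so none was counted as a copy. A count of 0 allows 3 counts of the total, 0.0949 to 0.211 CPM.

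Members, gene lists and tests were chosen with earlier results of these data known. The text names the 10 members, every gene of a related list past the threshold or, where none passed, the 2 with the smallest p, and 3 genes most like each of the 2 members with the smallest p. Of markers of other cells it names the 2 most abundant per list where the list bears on a result. Genes named outside this rule are said to be chosen after their values were seen. Rorb, Per2 and some other listed genes were not analysed here.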

Additional observations from a re-analysis of the deposited data

How the results depend on the processing

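No paired analysis was possible because the libraries are numbered 1 to 3 with DMSO and 4 to 6 with Yoda1, so no number is shared. Among the 10 members, 151 of 158 log2 changes under 16 alternatives kept their sign and their side of the threshold, 3 came to pass and 4 turned sign. Those that turned were Gata3, Bcl11b and Zbtb16 without Yoda1 6 (0.050, 0.031 and 0.30) and Bcl11b without DMSO 2 and DMSO 3 together (0.0926). The count of members called was 1 higher with DESeq2, and 0 to 1 higher and 0 to 1 lower when a library was left out. Of 462 values of 29 other named genes, 370 kept sign and side of the threshold, 71 lost it, 14 came to pass and 7 turned sign. All 10 called genes among them lost the call with the label suffix as a term (adjusted p from 0.124 to 0.397). They also lost it with libraries that share a label number summed (0.0792 to 0.301). With the suffix term DMSO 3 alone is set against the Yoda1 libraries, since DMSO 1 and DMSO 2 have suffix 0. Log2 changes there were, for example, -0.90 for Icos and -2.61 for Ly6a, near those of the reported fit. Those of Id3 (-1.31 against -1.79) and Arg1 (0.76 against 0.93) were smaller in size. Sign turned for Foxp3 with the label suffix as a term (0.18), without Yoda1 6 (0.00048) and in libraries with a suffix above 0 (0.18), for Mitf with voom (-0.14) and without Yoda1 4 (-0.099), for Il1rl1 without Yoda1 4 (-0.0148) and for Tcf3 without Yoda1 5 (0.0082). Leaving out a library gave ranges of -0.14 to 0.050 for Gata3, -0.19 to 0.031 for Bcl11b, -1.08 to 0.30 for Zbtb16, -0.88 to 0.00048 for Foxp3, -0.099 to 1.555 for Mitf, -0.0148 to 0.16 for Il1rl1 and -0.28 to 0.0082 for Tcf3. The cause was not tested.

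Counts of all genes called moved more. The reported fit had 76 higher and 123 lower, or 38.2% of calls higher, and upper quartile scaling gave 57 and 174, or 24.7% higher. DESeq2 gave 428 and 498, voom 121 and 179, no filter 50 and 83, and a filter of 10 CPM in 3 libraries 158 and 290. The label suffix as a term gave 2 and 1, and summing libraries that share a label number gave 1 and 0. Leaving out a library gave 4 to 74 higher and 5 to 146 lower. Added after seeing the data, the fit without DMSO 2 and DMSO 3 gave 0 and 0, and libraries with a suffix above 0 gave 1 and 1; there DMSO has 1 library, assumed to vary like the rest. Tcf7 and Zbtb16 rest on at most 71 counts a library and also scatter widely between libraries of a group.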

Other observations

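Clock genes were described because NFIL3 and RORα also act in the circadian clock. Of 18 tested, none passed in edgeR, and the median log2 change was -0.18. Before adjustment 2 higher genes and 1 lower gene had a p under 0.05, against 14.5% of all genes in either direction. Those with the smallest p were Csnk1d, a kinase of the period proteins, at 292 ± 23 CPM with Yoda1 and 236 ± 6 CPM with DMSO, and Arntl, which encodes BMAL1. Arntl was at 83.3, 83.6 and 83.8 CPM in Yoda1 4, 5 and 6, against 45.97, 65.2 and 66.8 CPM in DMSO 1, 2 and 3. The groups did not overlap for either gene, and their edgeR adjusted p was 0.193 and 0.218.

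Genes that accompany TCF-1 or TOX in T cells also went both ways. Of 15 tested, 1 rose, 1 fell and 13 were not called, beside 0.570% of all genes tested that rose and 0.923% that fell. Before adjustment, 3 higher and 4 lower of them had a p under 0.05, against 14.5% of all genes in either direction. The median log2 change was -0.34. Pdcd1, which encodes the inhibitory receptor PD-1 and accompanies Tox in chronically stimulated T cells, rose to 884 ± 51 CPM with Yoda1, against 430 ± 14 CPM with DMSO (log2 change 1.04, SE 0.082, edgeR adjusted p = 0.00141). It passed in each of the 6 fits without 1 library. It did not pass in edgeR with the label suffix as a term (log2 change 1.01, adjusted p = 0.145). Nor did it pass with libraries that share a label number summed (log2 change 1.05, adjusted p = 0.0885). The gene that fell was Id3, described with the relatives of Id2.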
